A study of Mus musculus with 2 samples.

Results

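The islet peptide hormone genes are Ins1, Ins2, Iapp, Gcg, Sst, Ppy, Pyy, Ghrl, Gast and Cck. They were taken by gene name from the annotation of a mouse oligonucleotide array, which held 1 probe for each, so that 10 of the 55681 gene probes and 10 of the 22139 measured genes are described. Messenger RNA was measured on 2 one-colour arrays with 1 Cy3-labelled sample each. The CSE-KO sample came from C57BL/6J mice with a knockout of CSE, aged 6 months and kept on a high-fat diet. The CSE-WT sample, named in the labels as the control, came from wild-type C57BL/6J mice of the same age on the same diet. CSE is cystathionine gamma-lyase, which is encoded by Cth and makes hydrogen sulfide from cysteine. Both samples are labelled as beta cells. How these cells were obtained, whether animals were pooled and where the knockout allele acts are not given in the sources used here.

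Pancreatic islets hold several endocrine cell types, each known for its main hormone: insulin and amylin in beta cells, glucagon in alpha cells, somatostatin in delta cells, pancreatic polypeptide in PP cells and ghrelin in epsilon cells. Each hormone is made as a longer precursor that convertases cut in the secretory pathway, and several are amidated at their carboxyl end. Glucagon raises blood glucose, insulin lowers it, and somatostatin restrains the release of both. Gastrin and cholecystokinin are better known as hormones of the stomach and the small intestine.

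With 1 array per genotype, no difference given here has a replicate check and none was tested. A gene counted as measured when its probe was well above background on both arrays. A fixed size of 2-fold (1 log2 unit) stood in for a test. Levels are processed fluorescence intensities, and differences are log2 values, CSE-KO minus CSE-WT, after each array was scaled by its 75th percentile. As a guide to spot noise, the SD between repeated spots was taken from the 40 probes nearest in level among 285 measured probes printed 10 times. It is the scatter, among spots of a probe, of the difference between the 2 arrays at the same position. It does not cover labelling or hybridisation shifts that all spots of a probe share, nor animals or preparations. Only 3 of those probes were as bright as the bright hormone probes, so the spot SD of 0.042 used there rests mostly on dimmer probes.

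Probe identity matters for close relatives, and the probe sequences are shown for the 2 insulins, for Ppy and Pyy, and for the genes whose probes lie at a transcript end. Coordinates are as the files annotate them, on mm9. Capitals in the Ins1 probe (chr19:52339385-52339444, plus strand) mark a stop codon, which 17 codons precede in the open frame.
Ins1: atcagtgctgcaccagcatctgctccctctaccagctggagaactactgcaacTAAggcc
The last 30 bases are shown for Ins2 (chr7:149864566-149864625, minus strand), Iapp (chr6:142252275-142252334, plus strand) and Ghrl (chr6:113666114-113666173, minus strand), with the AATAAA polyadenylation signal in capitals.
Ins2: cctctgcaatgAATAAAacctttgaatgag
Iapp: aagtttaacAATAAAgaagaccatgggatg
Ghrl: gAATAAAtgttcacctgtatgccaaatgtt
In Ppy (chr11:101961581-101961877, minus strand) and Pyy (chr11:101968311-101968370, minus strand) capitals mark the codons for the last residue of the mature peptide and the amidation and cleavage site after it.
Ppy: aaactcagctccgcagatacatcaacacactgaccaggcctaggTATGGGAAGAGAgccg
Pyy: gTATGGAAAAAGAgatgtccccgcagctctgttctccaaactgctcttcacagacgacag
The Ppy probe has 60 bases but spans 297 bases of the genome, so it skips 237 genomic bases and crosses a splice junction. The longest run of bases shared by the Ins1 and Ins2 probes was 7, and by the Ppy and Pyy probes 6. No other probe on the array shared a run of 20 bases with any of the 10 probes on either strand. The other probes lie at chr2:62312685-62312744 (Gcg, minus strand), chr16:23889776-23889835 (Sst, minus strand), chr11:100197806-100197865 (Gast, plus strand) and chr9:121398943-121399002 (Cck, minus strand). A genome annotation of this build was not used here, so exons were not assigned.

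All 10 hormone genes were measured and none was saturated. Ghrl was 2.51-fold higher in CSE-KO and was the 1 hormone gene past 2-fold, where 0.718% of all measured genes were at least 2-fold higher. None of the 10 was 2-fold lower, against 0.89% of all genes, and 1.61% of all genes were past 2-fold in either direction. By any amount, 2 were higher in CSE-KO (48.7% of all genes) and 8 were lower (51.3% of all genes). The median difference was -0.09, beside -0.01 over all measured genes. A difference of more than 3 times the spot SD was found for 4 hormone genes, higher for Ghrl and lower for Pyy, Iapp and Gcg, where 23.1% of all genes passed that mark in either direction, 10.5% higher and 12.6% lower.

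**Figure D1:**
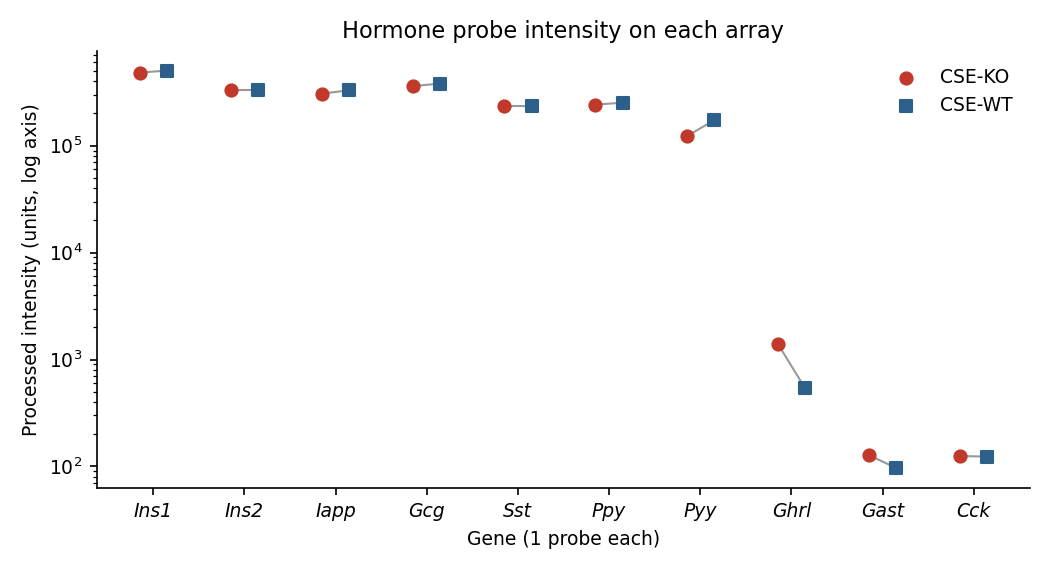
Processed intensity of each hormone gene's probe (log axis, arbitrary units) on the CSE-KO and the CSE-WT array. The points of a gene nearly coincide for most genes, while Ghrl was 1408 in CSE-KO and 541 in CSE-WT, and Pyy was 122327 in CSE-KO and 172223 in CSE-WT.

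None of the beta cell hormones was past 2-fold. Ins1, which encodes insulin 1 and arose in rodents as a copy of Ins2, had an intensity of 482701 in CSE-KO and 503410 in CSE-WT. Its difference was -0.12, and it was 0 under quantile normalization, with or without normexp, and in the authors' deposited table. No gene probe was brighter than that of Ins1 in CSE-KO or in CSE-WT, and quantile normalization gives the brightest probe of each array the same value.

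Ins2, the ancestral insulin gene, had 330923 in CSE-KO and 332046 in CSE-WT. Its difference of -0.06 took the other sign under 4 of 14 alternative settings. Iapp encodes amylin, which beta cells release together with insulin. It had 306889 in CSE-KO and 329828 in CSE-WT, a difference of -0.16, and stayed lower in CSE-KO under all 14 alternatives (-0.20 to -0.05). Among 26 genes within 0.5 log2 units of its level, Iapp included, Iapp had the lowest difference. Relative to Ins2 on the same array, Iapp was lower in CSE-KO by a difference of differences of -0.10 (-0.15 to -0.08 over all settings), and Ins1 by -0.06 (-0.06 to -0.0064). Settings that only changed a constant scaling factor could not move these ranges, because the factor cancels between genes of the same array.

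In the samples labelled as beta cells, the hormone genes of other islet cells were also well above background on both arrays. Gcg, the glucagon precursor, was printed 10 times on each array. Its spots ran from 342843 to 389590 in CSE-KO, with a median of 360668 over 10 spots. In CSE-WT they ran from 352495 to 411687, with a median of 394611 over 9 spots, 1 spot being flagged as an outlier. The spot ranges overlapped, but after scaling the CSE-KO spot was the lower one in 9 of 9 pairs printed at the same position. Before scaling it was the lower one in 8 of the 9. The mean paired difference was -0.14 with an SD of 0.072, and the gene stayed lower in CSE-KO under all alternatives (-0.17 to -0.02). Repeated spots are measurements of 1 sample and not replicates of a genotype.

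Sst, the somatostatin precursor, was printed 10 times too. Its spots ran from 231102 to 240285 in CSE-KO (median 234174, 8 unflagged spots) and from 221714 to 248326 in CSE-WT (median 234878, 9 unflagged spots). The CSE-KO range lay inside the CSE-WT range. The difference was -0.05 after scaling, and it took the other sign under 4 alternatives. The CSE-KO spot of Sst was the lower one in 7 of 8 unflagged pairs after scaling, but in 3 of 8 before scaling. The SD between paired Gcg spots was larger than the spot SD modelled at that level. Set against it, the single spots of Iapp and Pyy came to 2.23 and 7.67 times the SD. The difference of Gcg itself came to 1.89 times that SD, and the SE of its mean over 9 spot pairs was 0.024.

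**Figure D2:**
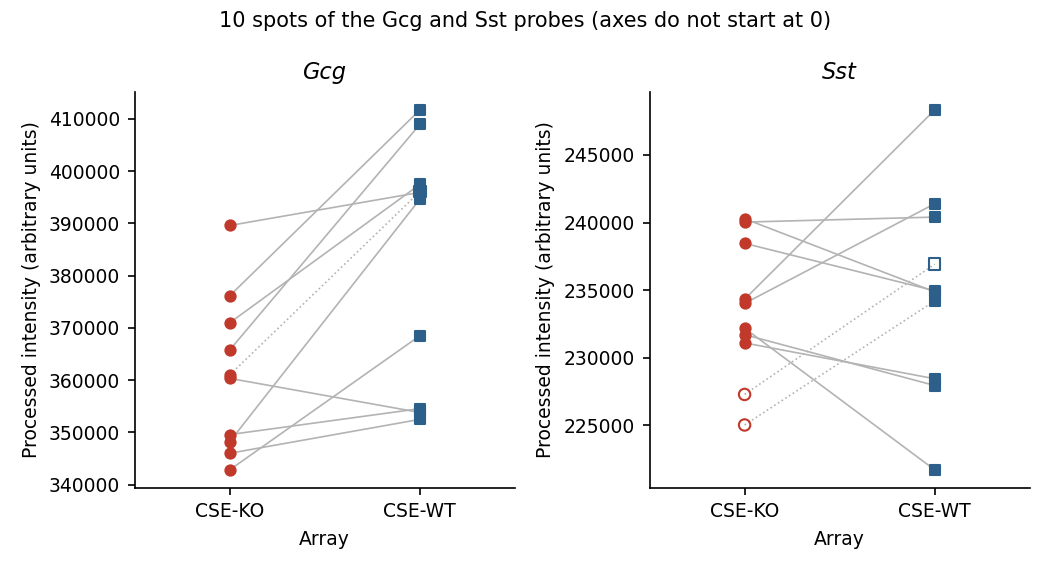
Processed intensity (arbitrary units, axes that do not start at 0) of each spot of the Gcg and Sst probes on the CSE-KO and the CSE-WT array. Open symbols are flagged spots, and lines join spots printed at the same position. Unflagged Gcg spots overlap between arrays with a lower median in CSE-KO, and the unflagged CSE-KO spots of Sst lie within the CSE-WT range.

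Pyy and Ppy are neighbouring genes of the neuropeptide Y family, and their probes start 6730 bases apart. Pyy encodes peptide YY, a gut hormone also made in mouse islets. Its intensity was 122327 in CSE-KO and 172223 in CSE-WT, which is 31.7% lower after scaling, a difference of -0.55. It stayed between -0.59 and -0.46 in all settings. Of the 80 genes at least as bright, Pyy included, it had the lowest difference, and it was also the lowest of 135 genes within 0.5 log2 units of its level. Among all measured genes, 630 (2.85%) were at least as low. The mean pixel signal of the spot was 121114 in CSE-KO and 163940 in CSE-WT, over 45 pixels in CSE-KO and 43 in CSE-WT.

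Ppy, the pancreatic polypeptide precursor, had 241835 in CSE-KO and 252516 in CSE-WT, a difference of -0.12 that turned to 0.04 with normexp and quantile normalization. Its mean pixel signal, neither detrended nor scaled, was 239175 in CSE-KO and 236817 in CSE-WT, while the scaled difference without detrending was -0.03. Pyy was lower than Ppy in CSE-KO relative to CSE-WT by a difference of differences of -0.43 (-0.49 to -0.43 over all settings). A constant scaling factor cancels between genes of the same array, so changing that factor could not move this range.

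The 7 bright hormone genes (Ins1, Ins2, Iapp, Gcg, Sst, Ppy and Pyy) were all lower in CSE-KO. Among the 80 genes at or above the level of the dimmest of them, these 7 included, 58 (72.5%) were lower and the median was -0.06. A small negative difference was thus common at that brightness. Of 10 spike-in RNAs, 7 were above background on both arrays, and their scaled differences ran from 0.01 to 0.08. The brightest spike-in had a median intensity of 152138 in CSE-KO and 143919 in CSE-WT. Ins1, Ins2, Iapp, Gcg, Sst and Ppy were brighter than every spike-in on both arrays, so the spike-ins do not cover their brightness.

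**Figure D3:**
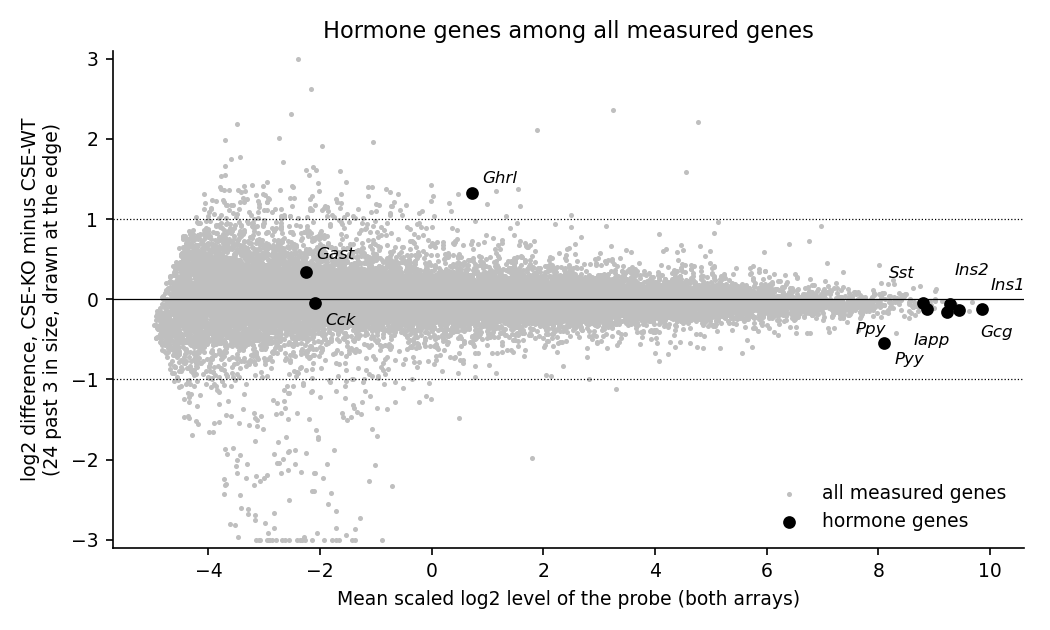
Difference, CSE-KO minus CSE-WT (log2), against the mean scaled log2 level for all measured genes (grey, 24 past 3 in size drawn at the edge) and the hormone genes (black). Dotted lines mark 2-fold. Ghrl lies above the upper line at 1.33, and Pyy at -0.55 lies below the other bright hormone genes.

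Ghrl encodes ghrelin, a peptide of epsilon cells and of the stomach that needs acylation to act on its main receptor. Its intensity was 1408 in CSE-KO and 541 in CSE-WT, a difference of 1.33, or 19.9 times the spot SD. It passed 2-fold in all 15 settings (1.18 to 1.38). Because Ghrl had 1 probe with 1 unflagged spot, and this probe passed each filter, the changes of filters, flags and probe rule left it at 1.33. Of 2393 genes within 0.5 log2 units of its level, 2 were at least as high, counting Ghrl, and of all measured genes 48 (0.217%). Its single spot had 44 pixels in CSE-KO and 43 in CSE-WT, with a mean pixel signal of 1513 in CSE-KO and 655 in CSE-WT. The local background was 67 in CSE-KO and 70 in CSE-WT, and no pixel was rejected as too high. The array held no second Ghrl probe to compare it with.

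No probe of another gene within 25000 bases of the Ghrl probe was past 2-fold. Tatdn2 had 240 in CSE-KO and 301 in CSE-WT, a difference of -0.38. The Sec13 probe differed by -0.03, and the Irak2 probes by -0.14 and 0.17. Mboat4 encodes the enzyme that acylates ghrelin, and its signal did not reach well above background in CSE-KO or in CSE-WT. Ghsr, the ghrelin receptor gene, had 31.1 in CSE-KO and 41.4 in CSE-WT, a difference of -0.47 beside a spot SD of 0.31.

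Gast and Cck were dim. Gast, the gastrin precursor, had 127 in CSE-KO and 96.8 in CSE-WT, a difference of 0.34, or 2.14 times the spot SD. It stayed higher in CSE-KO in all settings (0.19 to 0.40). Of 2300 genes within 0.5 log2 units of its level, 357 were at least as high, counting Gast, and 55.0% were higher by any amount. Within 25000 bases of the Gast probe, the Hap1 probes differed by 0.25 and 0.22 and the Eif1 probes by 0.08 and 0.03. Cck, the cholecystokinin precursor, had 125 in CSE-KO and 124 in CSE-WT. Its difference of -0.04 was smaller than the spot SD and took the other sign without scaling.

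**Figure D4:**
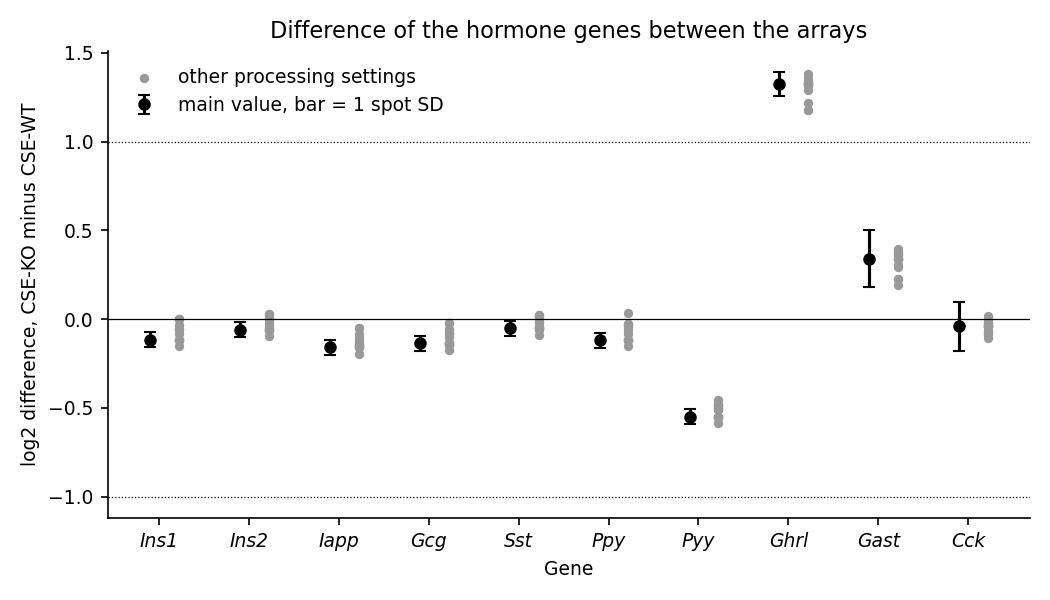
Difference of each hormone gene, CSE-KO minus CSE-WT (log2). Black points are the values as given with bars of 1 spot SD, grey points are the other processing settings, and dotted lines mark 2-fold. Ghrl lies past 2-fold throughout, Pyy lies below 0 throughout, and the ranges of Ins2, Sst, Ppy and Cck cross 0.

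Genes that act on the hormones were read as lists. Of 15 measured transcription factors of hormone genes, 4 were higher and 11 lower in CSE-KO, with a median of -0.12 and none past 2-fold. Neurog3, the factor of endocrine progenitors, had 1411 in CSE-KO and 1937 in CSE-WT (-0.51), and Isl1, a factor of all islet endocrine cells, differed by -0.40. Of 7 measured precursor-processing genes, 2 were higher and 5 lower, with a median of -0.06 (-0.09 to 0.02 over all settings). With the brightest probe of each gene, the differences furthest from 0 were those of Qpct (-0.19), Pam (0.12) and Scg5 (-0.10). Qpct cyclises terminal glutamine, Pam amidates peptides and Scg5 is a chaperone of a convertase. None of the 7 passed 3 times the spot SD. The 2 Pcsk2 probes differed by -0.06 (the one used) and -0.30, and the 3 Cpe probes ran from -0.14 to 0.01. Of 16 measured receptor genes, 9 were higher and 7 lower, with a median of 0.09 (0.02 to 0.15 over all settings). With the mean of measured probes in place of the brightest, 8 were higher and 8 lower. Npy1r, a receptor for peptide YY, had 41.9 in CSE-KO and 20.9 in CSE-WT (0.95). Cckbr, the receptor for gastrin and cholecystokinin, had 23.0 in CSE-KO and 30.6 in CSE-WT (-0.47). Both were dim, with a spot SD of 0.31, and Cckbr did not pass 3 times that SD.

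Markers of each cell type, hormone genes left out, give the setting of these values. In bulk samples, fewer cells of a type and less RNA per cell cannot be told apart. All 7 alpha cell markers were lower in CSE-KO with this scaling and probe choice, with a median of -0.38 (-0.52 to -0.33 over all settings) and a summed intensity of 237562 in CSE-KO and 263480 in CSE-WT. Irx1 had 1173 in CSE-KO and 1780 in CSE-WT (-0.66), and Irx2 had 471 in CSE-KO and 698 in CSE-WT (-0.62). Both encode transcription factors of alpha cells. Gc, the vitamin D binding protein gene, differed by -0.03, was higher in CSE-KO under 7 alternatives, and its other probe differed by 0.13. Of 8 beta cell markers, 4 were higher and 4 lower, with a median of -0.04 (-0.08 to 0.02 over all settings) and a sum of 369121 in CSE-KO and 385798 in CSE-WT. Slc30a8, the zinc transporter of insulin granules, differed by -0.23, Pdx1 by -0.21 and Ero1b by -0.19. Of 3 delta cell markers, 1 was higher and 2 were lower, among them Rbp4, with 25876 in CSE-KO and 31872 in CSE-WT (-0.36).

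Cells outside the endocrine islet were also represented. All 8 macrophage markers were higher in CSE-KO, except Csf1r under 2 alternatives, with a median of 0.45 and a sum of 18970 in CSE-KO and 14194 in CSE-WT, led by Itgax at 0.89. All 5 stellate cell and fibroblast markers were higher, with a median of 0.84 (0.39 to 0.90 over all settings) and a sum of 2107 in CSE-KO and 1374 in CSE-WT. Among them the collagen gene Col3a1 was past 2-fold, at 290 in CSE-KO and 136 in CSE-WT (1.04). Of 12 acinar markers, 7 were higher and 5 lower, with a median of 0.02 (-0.01 to 0.10 over all settings), and Ptf1a was past 2-fold, at 19.0 in CSE-KO and 85.9 in CSE-WT (-2.24). Of 4 measured stomach markers, 3 were higher and 1 was lower, Gkn1, at 29.3 in CSE-KO and 136 in CSE-WT (-2.26). The signal of the spots around the probe differed by -0.30 for Ptf1a and -0.18 for Gkn1. Local background around the Ptf1a probe differed by -0.11, past the limit of 0.05. The setting without probes whose neighbours differed in local background thus left Ptf1a out, with 11 acinar markers kept. The 5 measured intestinal markers had 2 higher and 3 lower, none past 3 times the spot SD, and Cdx2, Lct and Gip were not measured. The medians were 0.18 for 4 ductal, 0.09 for 5 endothelial and -0.54 for 3 erythroid markers. The part of these other cells in the hormone gene values was not tested.

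**Figure D5:**
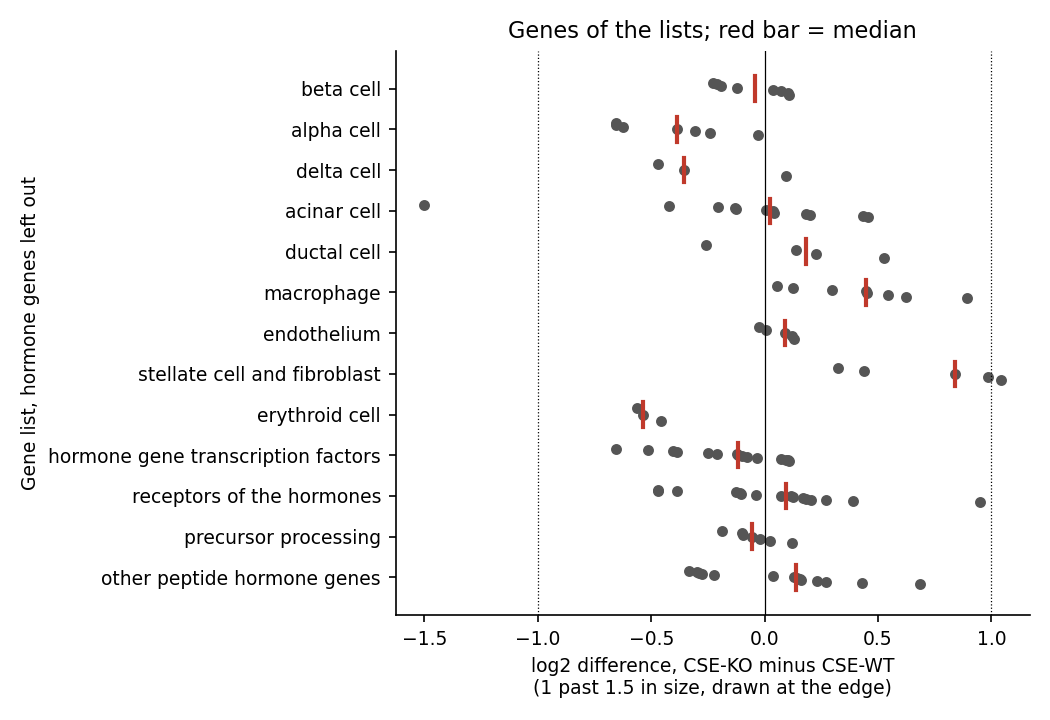
Difference, CSE-KO minus CSE-WT (log2), of the measured genes in the lists named on the axis (points, hormone genes left out, 1 past 1.5 in size drawn at the edge; stomach and intestinal markers are not drawn), with the list median as a red bar. With 75th percentile scaling all alpha cell markers lie below 0 and all macrophage and stellate cell markers above 0; under other settings Gc of the alpha list and Csf1r of the macrophage list crossed 0.

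The targeted gene was too dim to check the labels. The Cth probes had 3.15 and 3.68 in CSE-KO and 13.5 and 12.8 in CSE-WT. The 95th percentile of the negative control spots was 3.43 in CSE-KO and 4.32 in CSE-WT. Both probes were lower in CSE-KO, but neither was well above background in CSE-KO or in CSE-WT. Of the gene probes, 33177 (59.6%) were above background in CSE-KO and 31716 (57.0%) in CSE-WT.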

How the data were processed

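RNA was isolated with TRIzol and a column, then amplified and labelled with Cy3, per the labels' protocols. Per the file headers, the deposited intensity of each spot came from Agilent Feature Extraction 10.7.1.1, which detrended it spatially. Version 9.5.1.1 stands in the submitters' processing notes. Both arrays lay on 1 slide.

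Outlier-flagged gene spots were dropped (169 in CSE-KO, 139 in CSE-WT). Intensities were put on the log2 scale, repeated spots were averaged, and each array's 75th percentile (540 in CSE-KO, 519 in CSE-WT) was subtracted. Where a gene had several measured probes, the brightest on average was used. Names came from the files, updated by accession for 27235 probes, by symbol for 3581 and by older symbol for 565. Alternatives changed the scaling, background correction, filters, flags, probe rule and detrending. Python 3.11.15 and R 4.3.3 with limma 3.58.1 were used, and the code was tested on simulated data. The number of arrays limits the precision.

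All hormone genes are named, and in each list every gene past 2-fold and otherwise up to 3 with the largest differences. A gene that this rule would name is not reported here. Genes beside a hormone gene on the chromosome, Mboat4, Gc, Csf1r and unmeasured intestinal markers were named after their values were seen. Members and lists were chosen with earlier results of these data known.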

Additional observations from a re-analysis of the deposited data

How the results depend on the processing

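Ghrl remained the 1 hormone gene past 2-fold under all 14 alternatives, 2 of them chosen after seeing the data (leaving out probes whose neighbours differed in signal, and no detrending). The median over the hormone genes, -0.09, was -0.033 without scaling, -0.0096 with quantile normalization, -0.039 with cyclic loess, 0.0032 with normexp and quantile normalization and -0.018 in the authors' deposited table. The count of hormone genes higher in CSE-KO, 2, became 4 without scaling, with quantile normalization and with cyclic loess, and 5 with normexp and quantile normalization. The cause was not tested. Of all genes, 356 were past 2-fold (159 higher, 197 lower), against 133 with normexp (36 higher, 97 lower) and 134 with normexp and quantile normalization (38 higher, 96 lower). The count was 208 without detrending (64 higher, 144 lower) and 2564 with no filter on dim probes. More genes were higher than lower without scaling (189 higher, 181 lower). The same held without probes whose neighbours differed in local background (155 higher, 139 lower) or in signal (158 higher, 153 lower). Of 140 hormone gene values under alternatives, 40 moved by more than the spot SD. The probe rule could not move these values, since each hormone gene had 1 probe. The filters left them unchanged because the probes of all 10 hormone genes passed each filter. Scaling moved the median of all genes by at most 0.056. No paired analysis was possible because each genotype had 1 array and no result came from a test. Low signal limits Gast and Cck, whose spot SDs were 0.16 and 0.14, and more so Npy1r, Cckbr and Ghsr, at 0.31 each.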

Other observations

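Other peptide hormone genes were read beside the islet hormones. Of 14 measured, 9 were higher and 5 lower in CSE-KO, with a median of 0.14 and none past 2-fold. Npy, which encodes neuropeptide Y, had 685 in CSE-KO and 410 in CSE-WT (0.68), while Pyy of the same family was lower. Vgf, a granule peptide precursor, had 10730 in CSE-KO and 7671 in CSE-WT (0.43). Vip, which encodes vasoactive intestinal peptide, differed by -0.33.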
